A study of Homo sapiens with 12 samples.

Results

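Collagen genes of basement membranes and of the structures that anchor cells to them were followed through RNA sequencing of 12 libraries. The 10 genes are COL4A1, COL4A2, COL4A5, COL4A6, COL7A1, COL17A1, COL15A1, COL18A1, COL8A1 and COL8A2, 10 of the 32152 genes listed. They were chosen by name for their place in the matrix, with earlier results of these data known. All 10 were among the 13737 protein-coding genes tested, but 3 of them passed the filter on low values mainly through Hs-578T. COL4A6 reached 0.5 RPKM in 4 Hs-578T libraries and in 0 of the 6 MDA-MB-231 libraries, COL15A1 in 6 and 0, and COL8A2 in 6 and 1. RPKM is the number of reads on a gene divided by a gene length in kilobases and by the size of the library.

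A basement membrane is a thin sheet of matrix under epithelia, around vessels and around muscle, and collagen IV is the network that holds it together. Each collagen IV molecule is a triple helix of alpha chains, most often of the chains that COL4A1 and COL4A2 encode, while COL4A5 and COL4A6 encode chains of more restricted networks. Collagen VII forms the anchoring fibrils below the sheet, and collagen XVII is a membrane-spanning collagen of the hemidesmosome on the cell's side. Collagens XV and XVIII carry sugar chains and bind the sheet to the matrix around it, and the short chains of collagen VIII build lattices first described below the endothelium of the cornea. Carcinoma cells must cross such a sheet to invade, and in carcinomas these genes can be expressed by tumor cells as well as by stroma.

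MDA-MB-231 and Hs-578T are established human breast cancer cell lines of the triple-negative kind, which lack the estrogen receptor, the progesterone receptor and amplified HER2. Each line gave 2 libraries of untreated parental controls, 2 of cells in which ERK5 was to be knocked out and 2 of cells labelled MEK5DD, a MEK5 kinase held in its active state. MEK5 switches on ERK5, a MAP kinase encoded by MAPK7, and the comparisons address what its loss and its forced activation do to these cells. The ERK5-ko cells carried Cas9, a green fluorescent marker and guides against MAPK7, were sorted for that marker and were grown from single cells. The MDA-MB-231 ERK5-ko cells go back to 1 surviving clone, and which Hs-578T clone was sequenced is not stated in the sources used here. How the MEK5DD cells were made is likewise not given there. The passage labels are 29 and 30 for MDA-MB-231 parental controls, 7 and 8 for ERK5-ko and 10 and 11 for MEK5DD. In Hs-578T they are 83 and 84 for parental controls, and 8 and 9 for both ERK5-ko and MEK5DD. The study gives higher passages than these ERK5-ko labels for the cells of both lines that were edited. The labels may thus not be counted from the same start, and what they count from is not stated. In any comparison with parental controls, passage, cloning and genotype therefore cannot be told apart.

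The library totals lay between 20248162 and 27791195 reads. Mean MAPK7 was 17.0 RPKM under the ERK5-ko label and 13.8 in parental controls of MDA-MB-231, and 18.0 and 15.0 RPKM in Hs-578T. Its RNA was thus no lower in either line. The study reported strongly reduced ERK5 protein on Western blots of the ERK5-ko cells of both lines, which RNA levels do not measure. Its methods also name qRT-PCR, which does measure RNA, as a check of the clones, but its text gives no such value for ERK5. Each direction below refers to the label of a library. MAP2K5, the gene of MEK5, was 14.1 times the parental mean in MDA-MB-231 libraries labelled MEK5DD (186 against 13.2 RPKM) but 1.43 times in Hs-578T (22.5 against 15.8 RPKM). VIM, a mesenchymal marker, lay between 1598 and 4067 RPKM in all 12 libraries, while ESR1 and PGR stayed at or under 0.348 RPKM. ERBB2, the gene of HER2, was expressed, with 36.9 to 56.8 RPKM in MDA-MB-231 and 27.8 to 43.8 RPKM in Hs-578T. These RNA levels do not measure amplification of the gene. Nothing states whether replicates are separate cultures, so p-values measure the spread between these libraries only. The smallest two-sided p that an exact permutation of 2 libraries against 2 can reach is 0.333, and the spread was therefore estimated across all 12 libraries.

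The members lie on 7 chromosomes, and 2 pairs of collagen IV genes stand head to head. The RefSeq start sites of COL4A1 and COL4A2 on chromosome 13 are 127 bases apart, and those of COL4A5 and COL4A6 on the X chromosome are 380 bases apart. RefSeq promoter windows (GRCh38.p14) were matched for 9 of the 10 members, in 11 windows, and COL8A1 was not matched. The 250 bases before the start were searched on both strands for the CCAAT box (CCAAT), the GC box (GGGCGG), the TATA box (TATAAA), the AP-1 site (TGANTCA) and the core bound by MEF2 factors (CTA and TAG with any 4 bases between them), MEF2 being known as an ERK5 substrate. A CCAAT box was present in 5 of the 11 windows, against 32.0% of all 35116 windows of that length. A GC box was present in 8 of the 11 windows, against 42.6% of all windows, and a TATA box in 3, against 10.7%. The 11 windows are not independent, since those of each head-to-head pair share bases, and COL4A6 and COL18A1 have 2 windows each. The same match can thus be counted more than once, and these shares are a description only. No AP-1 or MEF2 match was found in the 11 windows, where 6.57% and 2.36% of all windows hold one, which says only that these letters are not there. The 4 stretches that follow are shown because the genes behind them changed in the comparisons below, with motif matches in capitals, no overlap between different motifs, and bases annotated as exon in GENCODE 29 left out. They are COL4A5 at chrX:108439588-108439837 on the plus strand, COL7A1 at chr3:48595330-48595579, COL17A1 at chr10:104085958-104086130 and COL8A2 at chr1:36125223-36125472, the last 3 on the minus strand.
COL4A5: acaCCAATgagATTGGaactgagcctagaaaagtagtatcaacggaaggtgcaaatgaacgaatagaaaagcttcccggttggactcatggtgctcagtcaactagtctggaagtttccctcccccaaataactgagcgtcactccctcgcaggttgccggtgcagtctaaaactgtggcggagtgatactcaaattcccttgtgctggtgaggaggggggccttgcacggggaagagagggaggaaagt
COL7A1: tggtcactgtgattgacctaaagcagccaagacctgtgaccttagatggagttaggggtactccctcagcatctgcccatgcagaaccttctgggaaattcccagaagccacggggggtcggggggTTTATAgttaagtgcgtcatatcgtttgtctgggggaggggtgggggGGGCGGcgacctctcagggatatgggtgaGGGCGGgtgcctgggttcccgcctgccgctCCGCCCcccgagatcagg
COL17A1: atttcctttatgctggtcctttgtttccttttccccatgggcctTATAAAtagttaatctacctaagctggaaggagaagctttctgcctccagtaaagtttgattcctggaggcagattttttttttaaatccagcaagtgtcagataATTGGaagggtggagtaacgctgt
COL8A2: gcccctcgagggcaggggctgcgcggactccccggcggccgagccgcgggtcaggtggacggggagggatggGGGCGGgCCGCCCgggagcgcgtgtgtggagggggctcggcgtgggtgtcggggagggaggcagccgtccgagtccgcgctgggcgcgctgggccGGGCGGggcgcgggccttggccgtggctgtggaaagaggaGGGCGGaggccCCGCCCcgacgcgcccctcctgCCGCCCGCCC
The COL8A2 stretch holds 7 GC box matches and 82.0% G and C, where the median of all windows is 58.0%. The COL17A1 stretch has 40.5% G and C, with 1 TATA box and 1 CCAAT box. In COL7A1, 3 GC boxes and 1 TATA box were found, and in COL4A5 2 CCAAT boxes near its far end.

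The parental lines differed in the levels of several of these collagens. COL4A1, COL4A2, COL4A5 and COL7A1 were lower and COL17A1 was higher in parental MDA-MB-231 than in parental Hs-578T, where 49.5% of all tested genes passed, 15.4% lower and 34.1% higher. A gene was called when the limma adjusted p was under 0.05 and the fold was above 1.5 or below 0.5. COL4A6, COL15A1 and COL8A2 passed the filter mainly through Hs-578T, where they are high, so a difference between the lines was favoured by that filter and their values are given as a description. The median log2 difference of all tested genes was 0.19, and it moved to -0.02 with median-ratio scaling and to 0.08 with quantile normalization. COL4A1 had 23.4 and 21.1 RPKM in MDA-MB-231 parental controls and 284 and 389 in Hs-578T parental controls (log2 difference -3.87, SE 0.186, limma adjusted p = 2.98e-09). COL15A1 had 0.228 and 0.298 RPKM in MDA-MB-231 and 11.3 and 14.6 in Hs-578T, a log2 difference of -4.13 with a pseudocount of 0.5 and of -3.46 with a pseudocount of 1. COL17A1 went the other way, at 10.3 and 10.96 RPKM in MDA-MB-231 and 0.638 and 0.567 in Hs-578T (3.34, SE 0.124, adjusted p = 2.94e-10). COL18A1 did not pass, with 80.6 and 77.8 RPKM in MDA-MB-231 and 78.5 and 95.4 in Hs-578T (95% interval of the log2 difference -0.50 to 0.24). COL8A1 was short of the fold (-0.79) and was called with median-ratio scaling (-1.02).

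**Figure D1:**
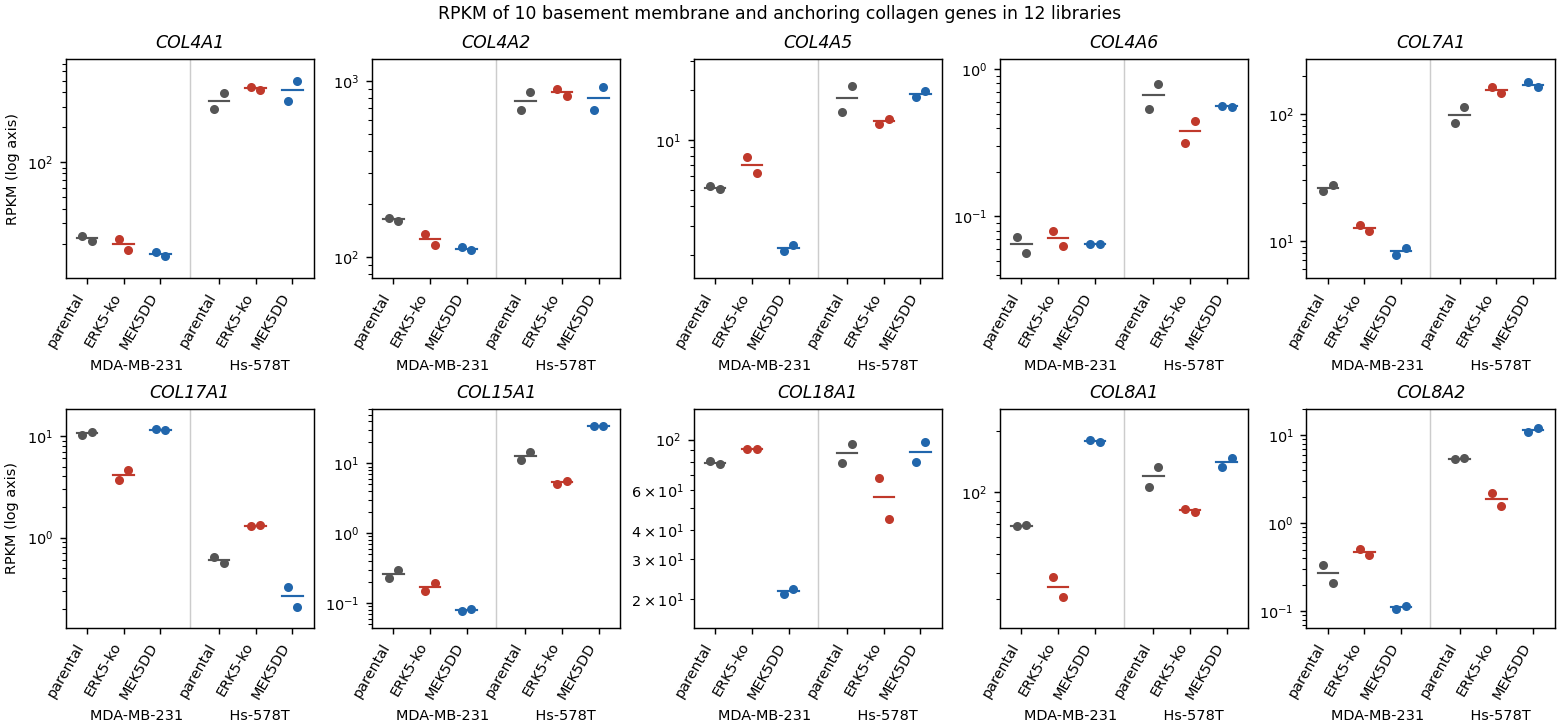
RPKM on a log axis of each of the 10 genes in the 12 libraries, where points are libraries, bars are means of 2 and colors mark parental, ERK5-ko and MEK5DD. Every MDA-MB-231 library lies above every Hs-578T library for COL17A1, and COL8A1 at 180 and 176 RPKM in MDA-MB-231 MEK5DD stands above the 38.1 and 30.7 RPKM of ERK5-ko.

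COL4A2 and COL4A1 had the highest means of the 10 genes in each Hs-578T group, on both length scales described below. COL4A2 (ENSG00000134871.17, chromosome 13, 110305812 to 110513027) had 681 and 869 RPKM in Hs-578T parental controls, 901 and 822 in ERK5-ko and 687 and 922 in MEK5DD libraries. COL4A1 (ENSG00000187498.14, chromosome 13, 110148963 to 110307149) had 284 and 389, 443 and 414, and 335 and 495 RPKM in the same order. Parental and MEK5DD values overlapped for both genes, and parental and ERK5-ko values overlapped for COL4A2 only.

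In MDA-MB-231, COL4A2 had 166 and 161 RPKM in parental controls, 135 and 116 in ERK5-ko and 113 and 109 in MEK5DD libraries. COL4A1 had 23.4 and 21.1, 22.1 and 17.7, and 16.9 and 15.6 RPKM. All MEK5DD values of both genes lay under all parental values, whereas for COL4A1 the ERK5-ko values overlapped the parental ones. The MEK5DD change of COL4A2 was -0.55 on the log2 scale (SE 0.151, limma adjusted p = 0.0117), which passed on p but not on the fold, and COL4A1 did not pass (adjusted p = 0.0802). Neither gene was called in any comparison with parental controls over all 12 libraries, and without parental replicate 2 COL4A1 was called in Hs-578T ERK5-ko (0.59, adjusted p = 0.0363).

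The alpha 1 to alpha 2 ratio differed between the lines, as a description with no test. The RPKM of COL4A1 was 0.132 to 0.163 times that of COL4A2 in the 6 MDA-MB-231 libraries and 0.417 to 0.537 times in the 6 Hs-578T libraries. The gene lengths behind the deposited RPKM were shorter than full transcripts, with 1157 bases for COL4A2 against 6494 in its longest GENCODE 29 transcript, and 2247 against 6616 for COL4A1. Across 13923 protein-coding genes the length used was close to the mean transcript length, with a median ratio of 0.996. COL4A1 and COL4A2 were further from it, with mean transcript lengths of 1701 and 1706 bases. Rescaled to the longest transcript, the ratio was 0.251 to 0.311 in MDA-MB-231 and 0.794 to 1.02 in Hs-578T. The rescaling multiplies the ratio of every library by the same factor, so it cannot change the order of the lines. These neighbours overlap by 1338 bases on opposite strands, and how reads there were assigned is not stated in the sources used here.

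**Figure D2:**
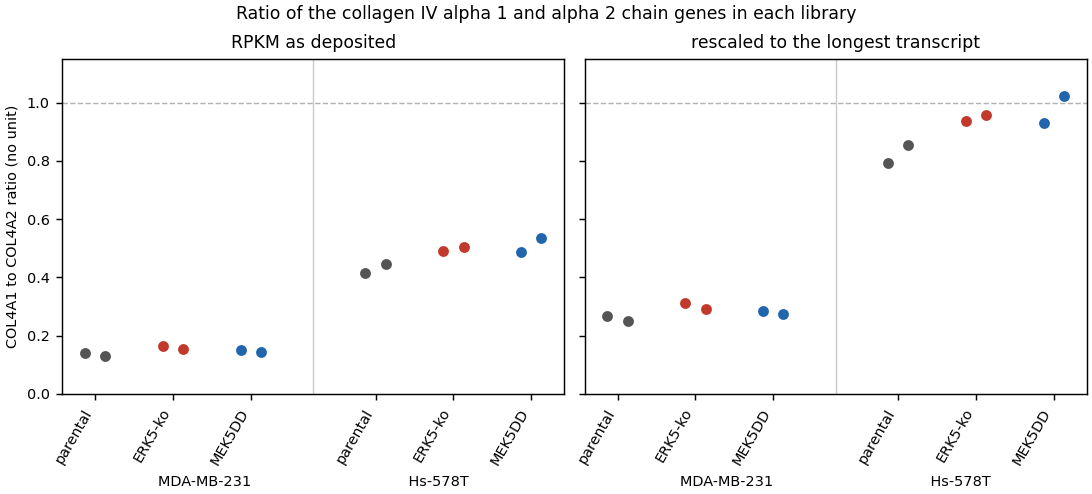
Ratio of COL4A1 to COL4A2 in each library, from RPKM as deposited on the left and rescaled to the longest transcript on the right, where points are libraries and the dashed line marks equal levels. The 6 Hs-578T libraries lie above the 6 MDA-MB-231 libraries, an order that the rescaling by a fixed factor cannot change.

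The second pair of collagen IV genes was far lower. COL4A5 (ENSG00000188153.12, chromosome X, 108439844 to 108697545) had 5.28 and 5.004 RPKM in MDA-MB-231 parental controls, 7.84 and 6.33 in ERK5-ko and 2.11 and 2.29 in MEK5DD libraries. The 3 groups did not overlap, and the MEK5DD libraries were lowest. COL4A5 fell by 1.06 on the log2 scale in MEK5DD (SE 0.157, limma adjusted p = 0.000228), a call that was lost with a pseudocount of 1 (-0.94) and with quantile normalization (-0.85). The higher values in ERK5-ko did not pass (0.42, adjusted p = 0.0909).

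In Hs-578T, COL4A5 had 14.7 and 21.2 RPKM in parental controls, 12.5 and 13.4 in ERK5-ko and 18.3 and 19.8 in MEK5DD libraries. Both ERK5-ko values lay below the parental ones, with a log2 change of -0.44 (adjusted p = 0.0451) that did not reach the fold. In a limma fit of the Hs-578T libraries alone that change did not pass on p. COL4A6 (ENSG00000197565.15, chromosome X, 108155607 to 108439497) had only 7 or 8 reads in every MDA-MB-231 library, so that each group of 2 summed to 15 reads with an exact Poisson interval of 8.395 to 24.7, which covers counting error only. No difference among the MDA-MB-231 groups was detectable at that depth. In Hs-578T, COL4A6 had 0.539 and 0.790 RPKM in parental controls, 0.316 and 0.444 in ERK5-ko and 0.564 and 0.557 in MEK5DD libraries. The ERK5-ko change of -0.40 on the log2 scale passed on p (adjusted p = 0.0202) but not on the fold. It did not pass on p in the fit of the Hs-578T libraries alone. Between the parental lines the log2 difference of COL4A6 was -1.04, a description only, since the gene passed the filter through Hs-578T alone. It was -0.94 in the fit blocked by replicate number, -0.88 without Hs-578T parental replicate 2, -0.79 with quantile normalization and -0.64 with a pseudocount of 1, all short of the fold.

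The anchoring collagens changed in opposite directions in the lines under the ERK5-ko label. COL7A1 (ENSG00000114270.15, chromosome 3, 48564073 to 48595267) had 24.8 and 27.6 RPKM in MDA-MB-231 parental controls, 13.4 and 11.9 in ERK5-ko and 7.71 and 8.78 in MEK5DD libraries. The 3 groups were separate, with parental controls highest. The log2 changes were -1.02 in ERK5-ko (SE 0.136, limma adjusted p = 0.000499) and -1.61 in MEK5DD (adjusted p = 2.79e-06). The ERK5-ko call rests on the fold threshold: without parental replicate 2 the change was -0.95, without ERK5-ko replicate 2 it was -0.94, and both leave it uncalled at adjusted p values of 0.00944 and 0.00904. It was also uncalled with a pseudocount of 1 (-0.997), with median-ratio scaling (-0.957) and with quantile normalization (-0.960).

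In Hs-578T the direction of COL7A1 was opposite. It had 84.9 and 114 RPKM in parental controls, 164 and 147 in ERK5-ko and 179 and 163 in MEK5DD libraries, and every ERK5-ko and MEK5DD value lay above both parental values. The log2 changes were 0.66 (SE 0.136, limma adjusted p = 0.00277) and 0.80 (adjusted p = 0.00189). The ERK5-ko call was lost, with a change of 0.45, without parental replicate 1, and with a change of 0.58 without ERK5-ko replicate 1. Libraries labelled ERK5-ko and MEK5DD did not differ in Hs-578T beyond their spread (95% interval -0.44 to 0.16).

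COL17A1 (ENSG00000065618.16, chromosome 10, 104031286 to 104086002) had 10.3 and 10.96 RPKM in MDA-MB-231 parental controls, 3.71 and 4.61 in ERK5-ko and 11.6 and 11.4 in MEK5DD libraries. The ERK5-ko libraries were the low ones, and the MEK5DD values lay just above the parental ones. COL17A1 fell by 1.26 on the log2 scale in ERK5-ko (SE 0.124, limma adjusted p = 6.55e-05), while MEK5DD changed it by 0.11 (adjusted p = 0.526). In Hs-578T the gene was scarce, with 25 to 31 reads a library in parental controls, 68 to 73 in ERK5-ko and 9 to 14 in MEK5DD. These correspond to 0.638 and 0.567 RPKM, 1.31 and 1.32, and 0.325 and 0.206, with no overlap among the groups. COL17A1 rose in Hs-578T ERK5-ko by 0.72 (SE 0.124, adjusted p = 0.000898) and the MEK5DD change of -0.53 passed on p (adjusted p = 0.0106) but not on the fold. A pseudocount of 1 in place of 0.5 brought the ERK5-ko change to 0.53, below the fold, and limma voom on the recovered reads called the MEK5DD change (-1.18, adjusted p = 0.0272).

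The multiplexins, collagens XV and XVIII, were expressed differently from each other. COL15A1 (ENSG00000204291.10, chromosome 9, 98943179 to 99070792) had 11.3 and 14.6 RPKM in Hs-578T parental controls, 5.08 and 5.67 in ERK5-ko and 34.5 and 34.2 in MEK5DD libraries. The groups were fully separate, in the order ERK5-ko, parental and MEK5DD. It fell by 1.19 in ERK5-ko (SE 0.129, limma adjusted p = 3.82e-05) and rose by 1.38 in MEK5DD (adjusted p = 3.65e-05) on the log2 scale. ERK5-ko and MEK5DD libraries of Hs-578T differed by -2.57 (limma adjusted p = 6.50e-08). Both carry the same passage labels, but what those labels count from is not stated.

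In MDA-MB-231 COL15A1 was near the floor, with 15 to 22 reads a library in parental controls, 9 to 13 in ERK5-ko and 5 or 6 in MEK5DD. These 0.228 and 0.298, 0.150 and 0.196, and 0.0782 and 0.0814 RPKM did not overlap. The MEK5DD change was -0.39 with a pseudocount of 0.5 (adjusted p = 0.0291), -1.007 with a pseudocount of 0.1 and -1.63 by limma voom on the recovered reads (adjusted p = 0.0133). At this level the size of the change depends on the pseudocount. COL15A1 overlaps an antisense transcript, RP11-92C4.6, by 439 bases, and its highest RPKM in the 12 libraries was 1.67.

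COL18A1 (ENSG00000182871.14, chromosome 21, 45405137 to 45513720), the gene whose protein contains endostatin, had 80.6 and 77.8 RPKM in MDA-MB-231 parental controls, 90.6 and 90.7 in ERK5-ko and 21.0 and 22.1 in MEK5DD libraries. The MEK5DD libraries were far below all others. COL18A1 fell by 1.85 on the log2 scale in MEK5DD (SE 0.168, limma adjusted p = 5.06e-06). Both ERK5-ko values lay above the parental ones. Their change of 0.19 did not pass with the spread of all 12 libraries (95% interval -0.18 to 0.56). In a limma fit of the MDA-MB-231 libraries alone that change passed on p (adjusted p = 0.0290) but not on the fold. In Hs-578T COL18A1 had 78.5 and 95.4 RPKM in parental controls, 67.5 and 44.7 in ERK5-ko and 79.4 and 97.3 in MEK5DD libraries. Both ERK5-ko values lay below the parental ones, with a log2 change of -0.65 (adjusted p = 0.00988) that did not reach the fold. In a limma fit of the Hs-578T libraries alone that change did not pass on p. SLC19A1 overlaps COL18A1 by 20149 bases on the opposite strand. SLC19A1 had 17.8 and 14.7 RPKM in Hs-578T parental controls, 30.5 and 30.2 in ERK5-ko and 9.72 and 12.9 in MEK5DD libraries, and at most 0.116 in MDA-MB-231. The kit marks strand, but whether counting used it is not stated, and the part of SLC19A1 in the COL18A1 values was not tested.

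The collagen VIII genes differed from each other in level. COL8A1 (ENSG00000144810.15, chromosome 3, 99638475 to 99799226) had 67.9 and 69.1 RPKM in MDA-MB-231 parental controls, 38.1 and 30.7 in ERK5-ko and 180 and 176 in MEK5DD libraries. These 3 groups were separate, with ERK5-ko lowest and MEK5DD highest. It rose in MEK5DD by 1.37 on the log2 scale (SE 0.122, limma adjusted p = 4.30e-06). In ERK5-ko the change was -0.99 (adjusted p = 0.000298), a mean RPKM of 0.503 times the parental one, which is just short of the fold below 0.5. Without ERK5-ko replicate 1 it was -1.14, without parental replicate 1 it was -1.003, and both were called, as was -1.001 by limma voom on the recovered reads.

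In Hs-578T COL8A1 had 106 and 132 RPKM in parental controls, 83.1 and 79.8 in ERK5-ko and 133 and 147 in MEK5DD libraries. ERK5-ko lay below parental in both libraries, with a log2 change of -0.54 (limma adjusted p = 0.00464) that did not reach the fold, and MEK5DD did not pass (0.24, adjusted p = 0.190). COL8A2 (ENSG00000171812.10, chromosome 1, 36095236 to 36125220) had 5.31 and 5.45 RPKM in Hs-578T parental controls, 2.23 and 1.59 in ERK5-ko and 10.9 and 12.2 in MEK5DD libraries. No group overlapped another. COL8A2 fell by 1.301 on the log2 scale in ERK5-ko (SE 0.141, adjusted p = 3.65e-05) and rose in MEK5DD by 1.03 (adjusted p = 0.000501). In MDA-MB-231 its 18 to 26 reads a library in parental controls, 34 to 36 in ERK5-ko and 8 to 10 in MEK5DD gave 0.337 and 0.207, 0.510 and 0.436, and 0.106 and 0.115 RPKM. Neither change passed (adjusted p = 0.127 for ERK5-ko and 0.0801 for MEK5DD), and limma voom on the recovered reads called the MEK5DD change (-1.19, adjusted p = 0.0414).

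Across the members, limma called 2 in MDA-MB-231 ERK5-ko, both lower, where 3.87% of all tested genes were called, 2.8% higher and 1.07% lower. The count was 2 higher and 2 lower in Hs-578T ERK5-ko (12.6% of all genes, 9.35% higher and 3.27% lower). There, 8 of the 10 members passed on p alone, against 39.4%, with 6 of them lower, against 19.7%. Of these 8, COL4A5, COL4A6 and COL18A1, all lower, did not pass on p in a limma fit of the Hs-578T libraries alone. COL4A5 also did not pass with a pseudocount of 0.1, without a filter on low values or with all gene types. In MDA-MB-231 MEK5DD 1 was higher and 3 were lower (13.9% of all genes, 7.64% higher and 6.31% lower), and in Hs-578T MEK5DD 3 were called, all higher (4.38%, 2.9% higher and 1.49% lower). Each pair of comparisons within a line shares the parental libraries, so their agreement or disagreement is given here only as values. The median log2 change of the members was -0.17, -0.42, -0.42 and 0.17 in that order, and that of all tested genes was -0.04, 0.01, -0.01 and -0.08. ERK5-ko set directly against MEK5DD gave 4 higher and 2 lower members in MDA-MB-231 (23.6% of all genes, 17.5% higher and 6.12% lower) and 1 higher and 2 lower in Hs-578T (19.3%, 15.3% higher and 3.96% lower). In Hs-578T these were COL17A1 higher, and COL15A1 and COL8A2 lower, in ERK5-ko. In MDA-MB-231 COL4A5, COL7A1, COL18A1 and COL8A2 were higher in ERK5-ko and COL17A1 and COL8A1 lower, with COL7A1 at 0.59 (adjusted p = 0.00316) falling to 0.51 without ERK5-ko replicate 1 and to 0.50 without MEK5DD replicate 1, both short of the fold. COL7A1 was also short of it with a pseudocount of 1 (0.56) and with quantile normalization (0.53), as was COL8A2, which has few reads in MDA-MB-231, with a pseudocount of 1 (0.41). COL15A1 was called there with a pseudocount of 0.1 (0.60, adjusted p = 0.0116).

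**Figure D3:**
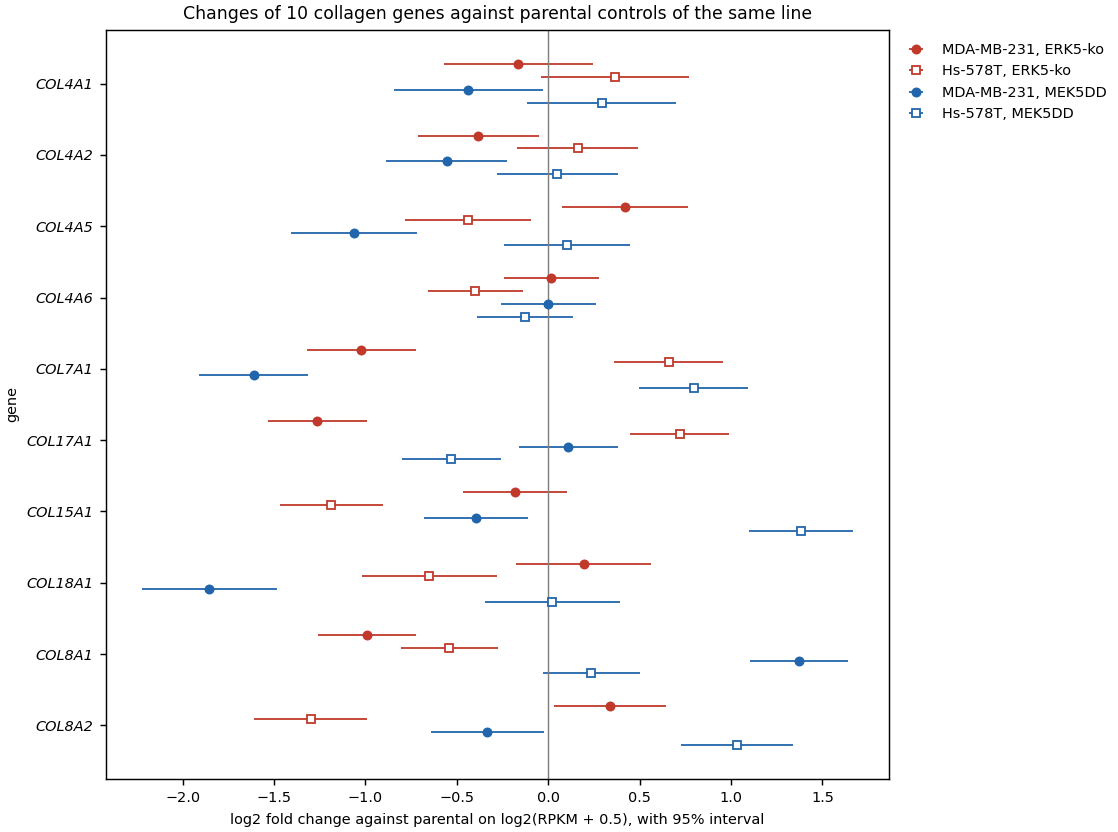
Log2 fold change of each gene against the parental controls of its line, with 95% intervals from limma, where filled circles are MDA-MB-231, open squares are Hs-578T, red is ERK5-ko and blue is MEK5DD. COL7A1 lies to the left of 0 for both labels in MDA-MB-231 and to the right for both in Hs-578T.

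Markers of the lines' own epithelial identity and of other cell types moved with the labels and are given for comparison. Their part in these results was not tested. The summed RPKM of the smooth muscle or pericyte markers ACTA2, RGS5 and DES was 133 to 169 in Hs-578T parental controls, 481 to 517 in ERK5-ko and 57.0 to 65.2 in MEK5DD libraries, nearly all of it ACTA2. In MDA-MB-231 it was 5.93 to 6.47, 31.5 to 34.4 and 7.68 to 8.37 in the same order, and most of the ERK5-ko sum was RGS5, at 28.5 and 25.9 RPKM against 3.06 and 3.17 in parental controls. DES stayed under 0.5 RPKM in all 12 libraries. The 4 epithelial markers EPCAM, CDH1, KRT8 and KRT18 summed to 1052 to 1148 RPKM in MDA-MB-231 parental controls, 1843 to 1860 in ERK5-ko and 931 to 965 in MEK5DD. In Hs-578T they summed to 189 to 264, 577 to 626 and 229 to 254 RPKM. The higher sum in MDA-MB-231 ERK5-ko was mostly of KRT8, with 1142 and 1146 RPKM against 677 and 744 in parental controls. KRT18 had 692 and 671 against 356 and 384, and EPCAM 24.4 and 25.7 against 18.4 and 19.5. CDH1 was near the floor and did not rise, with 0.640 and 0.579 RPKM against 0.640 and 0.650. The higher sum in Hs-578T ERK5-ko was of KRT18, with 547 and 596 RPKM against 213 and 141 in parental controls, while KRT8 was lower, with 29.7 and 27.9 against 50.7 and 46.9. EPCAM was at or under 0.0862 RPKM in all 6 Hs-578T libraries. The leukocyte markers PTPRC and CD68 summed to between 23.3 and 108 RPKM, nearly all of it CD68, and PTPRC stayed at or under 0.396 RPKM. The endothelial markers PECAM1, CDH5 and VWF summed to at most 6.52 RPKM, and CDH5 stayed at or under 0.0259 RPKM in all 12 libraries. In such bulk libraries, fewer cells of a type and less RNA per cell cannot be told apart.

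The response to the same label differed between the lines for several members. For ERK5-ko the difference passed for 6 of the 10 members (39.8% of all tested genes), and for MEK5DD for 9 (39.6%). Both counts include COL15A1 and COL8A2, which, like COL4A6, passed the filter mainly through Hs-578T. In MDA-MB-231 these genes have few reads and the pseudocount shrinks their change, so their differences between the lines are given as a description. COL7A1 differed by -1.68 for ERK5-ko (SE 0.192, limma adjusted p = 6.16e-05) and by -2.41 for MEK5DD (adjusted p = 3.61e-06), MDA-MB-231 minus Hs-578T on the log2 scale. COL17A1 differed by -1.98 for ERK5-ko and by 0.64 for MEK5DD, and COL8A2 by 1.64 and -1.36. COL18A1 passed for ERK5-ko (0.85, adjusted p = 0.0157), but at an adjusted p of 0.0506 without MDA-MB-231 parental replicate 2 and 0.0570 without Hs-578T ERK5-ko replicate 2 it did not. The COL15A1 difference for ERK5-ko, a description only, was 1.006, and by limma voom on the recovered reads it did not pass (0.68, adjusted p = 0.239). In the fit blocked by replicate number, COL4A1, COL4A2 and COL8A1 also passed for ERK5-ko, at differences of -0.53, -0.55 and -0.45 and adjusted p values of 0.0409, 0.02504 and 0.0285. For MEK5DD, COL4A1 (-0.73, adjusted p = 0.0447) and COL4A2 (-0.60, adjusted p = 0.0423) passed narrowly and lost the call with quantile normalization, with all gene types and without a filter on low values. They also lost it without either MDA-MB-231 parental or MEK5DD library, without Hs-578T parental replicate 1 and without Hs-578T MEK5DD replicate 2, at adjusted p values of 0.0723 to 0.147 for COL4A1 and 0.0886 to 0.136 for COL4A2. COL17A1 for MEK5DD (adjusted p = 0.0133) did not pass without MDA-MB-231 parental replicate 1 (adjusted p = 0.0548). Left out in turn, Hs-578T parental replicate 2 let COL4A1, COL4A2 and COL8A1 pass for ERK5-ko (-0.76, -0.72 and -0.61), Hs-578T parental replicate 1 let COL4A6 pass (0.57), as did quantile normalization (0.54) and no filter on low values (0.42), and MDA-MB-231 ERK5-ko replicate 1 let COL8A1 pass (-0.60).

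**Figure D4:**
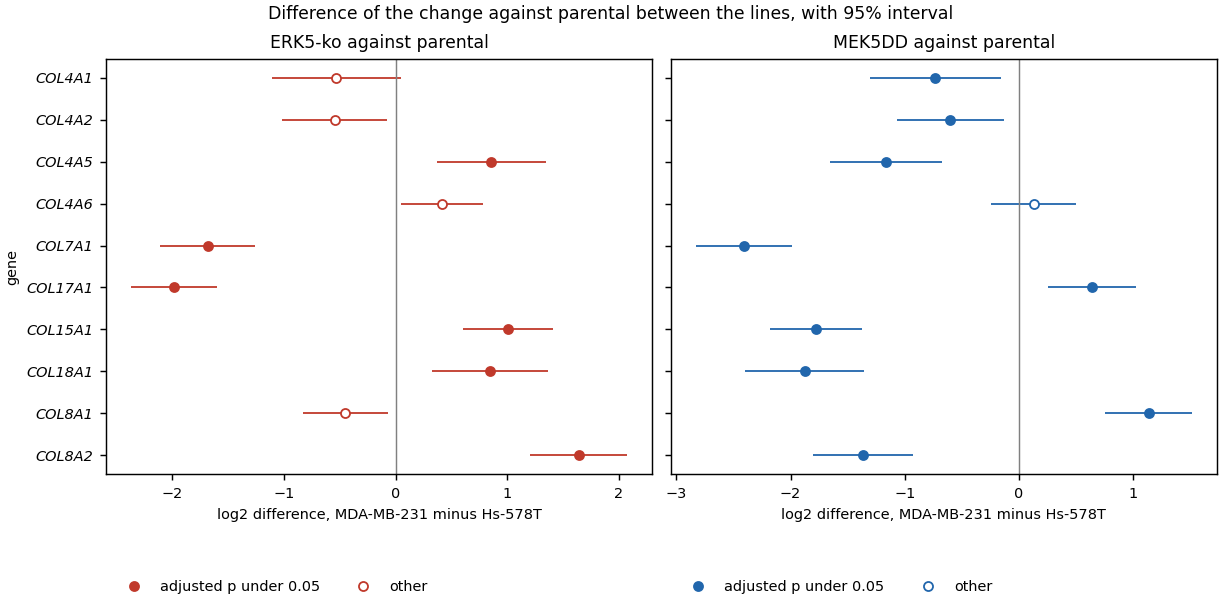
Difference of the log2 change against parental between the lines, MDA-MB-231 minus Hs-578T, for ERK5-ko on the left and MEK5DD on the right, with 95% intervals from limma, and filled circles for adjusted p under 0.05. COL7A1 lies at -1.68 and -2.41, and COL17A1 at -1.98 and 0.64.

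Levels of different genes were also ordered within a group, on the RPKM as deposited. COL4A2, COL18A1 and COL8A1 led MDA-MB-231 parental controls at means of 163, 79.2 and 68.5 RPKM, and COL8A2 and COL15A1, at 0.272 and 0.263 RPKM, overlapped. In Hs-578T parental controls the order was COL4A2, COL4A1, COL8A1, COL7A1 and COL18A1, in which COL8A1 overlapped COL7A1 and COL7A1 overlapped COL18A1. On the longest-transcript scale COL18A1, at 43.1 RPKM, and not COL4A2, at 29.1, led in MDA-MB-231 parental controls. In MDA-MB-231 MEK5DD libraries COL8A1 led on both scales, at 178 and 59.0 RPKM.

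Other basement membrane genes were counted for context. Of 17 tested genes for laminins, nidogens, perlecan, agrin and related proteins (20 listed), limma called 0 in MDA-MB-231 ERK5-ko, against 3.87% of all tested genes. There, 6 had an unadjusted p under 0.05, and limma voom on the recovered reads called 1. The shares of all tested genes by those rules are not given, so these counts are a description only. In this list 3 were higher and 2 lower in Hs-578T ERK5-ko (12.6% of all genes), 2 higher and 2 lower in MDA-MB-231 MEK5DD (13.9%) and 3 higher and 1 lower in Hs-578T MEK5DD (4.38%). NID2, a nidogen that links laminin to collagen IV, fell in Hs-578T ERK5-ko from a mean of 14.2 to 1.69 RPKM (log2 change -2.74, SE 0.170, limma adjusted p = 6.31e-07). LAMA4, a laminin chain of vessel walls, fell there from 13.5 to 3.04 RPKM and rose in MDA-MB-231 MEK5DD from 0.926 to 11.1 RPKM (3.02, adjusted p = 2.61e-07). In Hs-578T MEK5DD it fell as well, to 6.26 RPKM (-1.04, adjusted p = 0.00278). LAMB3, a chain of the laminin that collagen XVII and collagen VII bind, rose in Hs-578T ERK5-ko from 16.7 to 43.1 RPKM. In MDA-MB-231 MEK5DD, LAMA5 fell from 126 to 20.3 RPKM and AGRN from 227 to 84.1 RPKM. In Hs-578T MEK5DD, SPARC rose from 8015 to 13351 RPKM.

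Receptors and hemidesmosome partners of these collagens were counted in the same way. Of 13 genes, limma and limma voom each called 0 in MDA-MB-231 ERK5-ko and in Hs-578T MEK5DD, with 6 and 2 at an unadjusted p under 0.05, where 3.87% and 4.38% of all genes were called. The calls by limma were 1 higher and 1 lower in Hs-578T ERK5-ko (12.6% of all genes), and in MDA-MB-231 MEK5DD 1 in all, which was lower (13.9%). DDR1, a collagen-binding receptor kinase, fell in MDA-MB-231 MEK5DD from 134 to 39.9 RPKM (log2 change -1.74, limma adjusted p = 2.54e-07). In Hs-578T ERK5-ko, ITGA10, a collagen-binding integrin chain, fell from 6.08 to 2.19 RPKM, and ITGA2, another, rose from 5.39 to 9.33 RPKM. On adjusted p alone, without the fold, 4 receptor genes passed in MDA-MB-231 ERK5-ko, 2 in each direction, and 2 in Hs-578T MEK5DD, both lower. The shares of all tested genes on adjusted p alone, or at an unadjusted p under 0.05, are not given for these comparisons. The counts by those rules are therefore a description only.

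Enzymes and chaperones of collagen synthesis numbered 22 tested genes. By limma 1 was called in MDA-MB-231 ERK5-ko, which was higher, and 1 in Hs-578T MEK5DD, which was lower, where 3.87% and 4.38% of all genes were called. In Hs-578T ERK5-ko and in MDA-MB-231 MEK5DD, 2 were higher and 1 lower in each, where 12.6% and 13.9% of all genes were called. P3H2, a prolyl 3-hydroxylase, rose in Hs-578T ERK5-ko from 134 to 220 RPKM (0.71, limma adjusted p = 8.19e-05) and fell in Hs-578T MEK5DD to 54.6 RPKM (-1.29, adjusted p = 5.31e-06). PLOD2, a lysyl hydroxylase, rose in MDA-MB-231 MEK5DD from 26.0 to 46.5 RPKM. P4HA3, a subunit of prolyl 4-hydroxylase, fell in Hs-578T ERK5-ko from 5.03 to 2.04 RPKM. The median log2 change of the 22 genes in Hs-578T ERK5-ko was -0.28 against 0.01 for all tested genes, and in MDA-MB-231 MEK5DD -0.28 against -0.01. In MDA-MB-231 ERK5-ko it was 0.06 against -0.04, and in Hs-578T MEK5DD -0.03 against -0.08.

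Similarity of pattern was described over the 12 libraries after the mean of each line was subtracted, with no test, since these points are 6 pairs of replicates that share group means. COL15A1 and COL8A2 had a Pearson correlation of 0.944, as had COL4A5 and COL18A1, and the head-to-head pair COL4A1 and COL4A2 had 0.889, while COL4A5 and COL4A6 had 0.389. COL15A1 and COL8A2 have few reads in MDA-MB-231, so their correlation rests mainly on Hs-578T. In MDA-MB-231 ERK5-ko, mean COL15A1 was 0.173 RPKM against 0.263 in parental controls, and mean COL8A2 0.473 against 0.272. Neither of these changes passed, and in MDA-MB-231 MEK5DD both means were lower than in parental controls. The 3 tested genes most alike to COL18A1 were REPS2 (0.992), SORCS2 (0.986) and SYTL1 (0.984), and those to COL8A1 were IGDCC4 (0.988), SOX4 (0.985) and AK5 (0.984). COL8A2 was most like CCDC71L (0.987), SSPN (0.985) and AZIN2 (0.984), and COL15A1 was most like ITPRIPL1 (0.984), SSC5D (0.984) and ARID5A (0.982). COL17A1 was most like PSMD6 (0.983), STC1 (0.979) and ZDHHC3 (0.977), and COL7A1 was most like FUT11 (0.939), IFIT3 (0.934) and SPANXB1 (0.923). COL4A1 was most like TJP1 (0.948), COL4A2 like SH3RF3 (0.951), COL4A5 like RILPL1 (0.986) and COL4A6 like CD7 (0.936).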

How the data were processed

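RNA of 12 libraries was analysed from the RPKM values that the authors deposited for 32152 genes, with all 12 columns matched to a sample by its labels. The processing notes name bcl2fastq, Trimmomatic 0.32, TopHat2 2.1.1, R 3.3.1 and DESeq2 1.12.4, with GRCh38, but not the counting tool or annotation, which are not given in the sources used here. Whole reads were recovered from 100.0% of the genes (tolerance 1e-06), while totals about 1% off gave 0 of 500, and 92.05 to 94.5% of the reads lay on listed genes. log2(RPKM + 0.5) of the 13737 protein-coding genes with at least 0.5 RPKM in 2 libraries was modelled by 6 group means over the 12 libraries in limma (3.58.1, under R 4.3.3), with Benjamini-Hochberg adjustment. A fold on this scale understates the change of low genes. A gene was called by the study's thresholds, and differences between the lines by adjusted p alone.

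The members and gene lists were chosen with earlier results of these data known, and no list is independent evidence. The genes named besides the members are the 3 called list genes with the largest change in each comparison (mean RPKM of at least 1) and the 3 most alike by correlation. Some of these are given only as counts. Libraries of the same replicate number deviated together (correlation 0.107 to 0.541 over 6 pairs of groups), so a fit with the replicate number as a block is an alternative. The others changed the pseudocount, filter, scaling, libraries, gene types, call rule, unit and replicates kept. RGS5 is listed for more than 1 gene, of which the most expressed entry was used. The fit was tested on simulated data, and the other steps ran in Python 3.11.15 with pandas 2.3.3, numpy 2.4.6, matplotlib 3.10.9 and scipy 1.17.1. Replicates differed by more than counting noise, with chi-square values of 2.81 to 41.9 for each degree of freedom. The highest were 41.9 in Hs-578T MEK5DD and 30.7 in Hs-578T parental controls, and the next was 8.78 in MDA-MB-231 ERK5-ko. Since the main fit pools the spread of all groups, it can understate the spread in those Hs-578T groups and overstate it in the others.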

Additional observations from a re-analysis of the deposited data

Results flagged for a closer look

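The change against parental differed between the lines for several members, by a limma test of the difference itself, MDA-MB-231 minus Hs-578T on the log2 scale. For ERK5-ko the differences were 0.86 for COL4A5, -1.68 for COL7A1, -1.98 for COL17A1, 1.006 for COL15A1, 0.85 for COL18A1 and 1.64 for COL8A2. For MEK5DD they were -0.73 for COL4A1, -0.60 for COL4A2, -1.16 for COL4A5, -2.41 for COL7A1, 0.64 for COL17A1, -1.78 for COL15A1, -1.88 for COL18A1, 1.13 for COL8A1 and -1.36 for COL8A2. The differences of COL15A1 and COL8A2 are a description, since both have few reads in MDA-MB-231 and passed the filter mainly through Hs-578T. Groups hold 2 libraries, so no single library was tested for standing apart.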

How the results depend on the processing

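Of 861 values of single members under other settings, 827 kept their direction and side of the threshold, 19 lost the call, 12 gained it and 3 changed sign, and with 1 library left out 395 of 440 kept both, 22 lost the call, 8 gained it and 15 changed sign. The cause was not tested, and all sign changes were of uncalled values. The count of called members in MDA-MB-231 ERK5-ko (2) was 1 with a pseudocount of 1, with median-ratio scaling and with quantile normalization, where COL7A1 fell short of the fold. Without a fold threshold the count was 8 in Hs-578T ERK5-ko (4), and it was 6 in Hs-578T ERK5-ko against MEK5DD (3), with 5 at a fold of 1.5 in both directions. With 1 library left out, where a lone library is assumed to vary like the other groups, the counts ranged from 1 to 3 in MDA-MB-231 ERK5-ko, from 3 to 5 in Hs-578T ERK5-ko, from 5 to 6 in MDA-MB-231 ERK5-ko against MEK5DD, from 7 to 8 between parental lines, from 5 to 9 for the ERK5-ko difference and from 6 to 9 for the MEK5DD difference, and stayed at 4 and 3 in MDA-MB-231 and Hs-578T MEK5DD and at 3 in Hs-578T ERK5-ko against MEK5DD. In the fit blocked by replicate number, the ERK5-ko difference between the lines passed for 9 members (6), COL4A6 was no longer called between the parental lines (-0.94), and no other call changed. Under quantile normalization COL4A2 in Hs-578T MEK5DD was -0.0285, and under median-ratio scaling COL4A1 and COL4A2 in Hs-578T ERK5-ko against MEK5DD were -0.0480 and -0.00606. The values that changed sign with 1 library left out ranged as follows. COL4A6 in MDA-MB-231 ranged from -0.00409 to 0.0378 in ERK5-ko, from -0.0193 to 0.0218 in MEK5DD and from -0.00536 to 0.0366 between them. In Hs-578T, COL4A2 ranged from -0.0136 to 0.338 in ERK5-ko and from -0.164 to 0.261 in MEK5DD. In Hs-578T MEK5DD, COL4A5 ranged from -0.154 to 0.358, COL4A6 from -0.282 to 0.0293 and COL18A1 from -0.123 to 0.168. In Hs-578T ERK5-ko against MEK5DD, COL4A1 ranged from -0.210 to 0.353 and COL4A2 from -0.0990 to 0.326. COL18A1 between the parental lines ranged from -0.267 to 0.0121, and COL4A6 in the MEK5DD difference from -0.0281 to 0.283. COL4A6, COL15A1 and COL8A2 in MDA-MB-231 and COL17A1 in Hs-578T MEK5DD have few reads and are limited by depth.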
